A study of Mus musculus with 2 samples.

Results

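Broad peaks found in both replicates were regions of the mouse genome where the CUT&Tag signal for DLX2 formed a peak of 300 bp or more in each of 2 libraries. CUT&Tag was performed on maxillary process tissue, a mixture of cell types, of wildtype C57BL/6 embryos at E12.5 with an antibody against DLX2, and the 2 libraries are called replicate 1 and replicate 2. They form 1 group, so no treatment, genotype or control library was compared, and the labels do not say whether the libraries came from separate embryos. Members were chosen by measured length: a replicate 1 peak of 300 bp or more on chromosomes 1 to 19 that shared at least 1 bp with a replicate 2 peak of 300 bp or more. The rule took 1633 peaks of 10796 shared replicate 1 peaks on these chromosomes, and of 28061 replicate 1 peaks and 62093 replicate 2 peaks in all. The 5281 shared peaks that were shorter than 300 bp in both replicates served for comparison, and the other 3882 shared peaks were long in 1 replicate and short in the other. Spread between 2 libraries may be technical, and intervals below cover counting error only, since peaks of a library are not replicates of a condition.

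DLX2 is a homeodomain transcription factor of the branchial arches, where *Dlx* genes help to specify parts of the jaw skeleton formed by neural crest cells. From the maxillary process, a facial outgrowth of the embryo, most of the upper jaw forms. In CUT&Tag an antibody guides a transposase that tags the DNA around its target, and the tagged fragments pile up as peaks. Distal regulatory sequences such as enhancers often lie far from the gene they act on, in introns or between genes, so the position of a peak does not name its target gene.

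Few broad shared peaks lay over an annotated transcription start. Windows from 250 bases before to 50 bases after a start were taken from RefSeq (GRCm38.p6, 32851 windows), and 4 broad shared peaks met such a window, against 31 of the 5281 short ones. The 4 windows are printed 5′ to 3′ on the strand of the gene, because they are the members for which base sequence was at hand, and capitals mark the bases covered by the peaks of both replicates.
*Acat2* (chr17:12960676-12960975, minus strand): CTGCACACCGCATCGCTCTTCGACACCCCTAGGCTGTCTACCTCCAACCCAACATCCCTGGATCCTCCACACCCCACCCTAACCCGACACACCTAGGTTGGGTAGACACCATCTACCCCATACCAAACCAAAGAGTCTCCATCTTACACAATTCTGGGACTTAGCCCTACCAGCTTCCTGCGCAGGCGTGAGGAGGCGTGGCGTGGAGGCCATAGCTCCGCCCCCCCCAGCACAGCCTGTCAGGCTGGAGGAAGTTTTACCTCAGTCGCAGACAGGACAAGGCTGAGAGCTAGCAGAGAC
*Zfp583* (chr7:6330385-6330684, minus strand): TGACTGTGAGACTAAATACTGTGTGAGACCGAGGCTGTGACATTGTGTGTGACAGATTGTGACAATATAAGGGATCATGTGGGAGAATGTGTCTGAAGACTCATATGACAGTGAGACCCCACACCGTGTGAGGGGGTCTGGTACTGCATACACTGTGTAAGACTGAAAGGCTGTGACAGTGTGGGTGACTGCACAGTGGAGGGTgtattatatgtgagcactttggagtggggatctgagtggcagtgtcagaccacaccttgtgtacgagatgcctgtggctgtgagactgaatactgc
*4933436E23Rik* (chr1:139379202-139379501, plus strand): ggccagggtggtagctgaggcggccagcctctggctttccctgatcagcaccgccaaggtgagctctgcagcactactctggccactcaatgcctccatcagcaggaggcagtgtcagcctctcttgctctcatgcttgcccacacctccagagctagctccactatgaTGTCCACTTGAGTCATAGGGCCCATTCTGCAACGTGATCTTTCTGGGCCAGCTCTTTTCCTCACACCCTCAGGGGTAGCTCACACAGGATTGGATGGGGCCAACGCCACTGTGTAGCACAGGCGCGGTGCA
*Gm42089* (chr11:90225519-90225818, minus strand): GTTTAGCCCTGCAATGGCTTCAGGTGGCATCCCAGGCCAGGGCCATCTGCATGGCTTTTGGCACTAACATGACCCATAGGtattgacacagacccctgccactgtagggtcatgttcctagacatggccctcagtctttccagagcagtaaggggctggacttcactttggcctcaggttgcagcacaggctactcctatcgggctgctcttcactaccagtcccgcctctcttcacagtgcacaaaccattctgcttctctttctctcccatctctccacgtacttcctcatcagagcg

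The peak over *Acat2*, which encodes a cytosolic acetyl-CoA acetyltransferase, covered the whole window, and its fold was 5.37 in replicate 1 and reached 7.10 in replicate 2. That over *Zfp583*, a zinc finger gene, covered 204 of the bases, with folds of 5.60 and 7.06. The other windows belong to genes that RefSeq does not class as protein-coding, where 131 bases were covered at *4933436E23Rik* and 80 at *Gm42089*. The motifs searched were TAATTA and TAATTG for homeodomain factors, TGTGGT for Runx factors, CACGTG, an E box, CAGATG for Twist and Hand factors, GGAATG for TEAD factors and GGGCGG for the GC box, each on both strands. TAATTG differs from TAATTA in its last letter, and TAATTA and CACGTG read the same on both strands. Neither homeodomain motif was in any of the 4 windows, while 5.29% of all RefSeq windows held TAATTA and 8.00% held TAATTG. The Runx letters lay in the *Zfp583* window, outside the part covered by both peaks, and 16.8% of all windows held them. The GC box lay in the *Acat2* window (35.7% of all windows) and CAGATG in the *Gm42089* window (17.2% of all windows). CACGTG, held by 7.15% of all windows, and GGAATG, held by 14.7%, were in none of the 4. These windows are too few to compare with these shares, and no sequence around the other members was used here.

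Broad shared peaks were longer in the replicate with the longer list. The median length was 387 bp in replicate 1, with quartiles of 338 and 467 bp, and 488 bp in replicate 2, with quartiles of 397 and 616 bp. In 1285 of the 1633 members the replicate 2 peak was the longer. Both peaks reached 500 bp in 249 members and 1000 bp in 6. The stretches covered in both replicates summed to 634 kb. Of the 2430 replicate 1 peaks of 300 bp or more, 67.2% were members, 421 met only shorter replicate 2 peaks and 376 met none. Of the 12012 replicate 2 peaks of that length, 13.5% stood behind a member and 7164 met no replicate 1 peak. Among peaks shorter than 300 bp, 16617 in replicate 1 and 43337 in replicate 2 met none. Peaks of all lengths on these chromosomes numbered 27789 and 61053. Since 7 replicate 2 peaks met more than 1 member and 1 member met 2, 1627 replicate 2 peaks stood behind the 1633 members.

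Length and strength come from the same fragments, so the strength of the members is given as a description. Fold sets the fragments at the highest point of a peak, its summit, against the background that the caller estimated around it. Its median over the members was 6.52 in replicate 1 and 6.73 in replicate 2, against 4.79 and 4.56 in the short shared peaks. The fragments at the summit, recovered from fold and p, had a median of 10 in replicate 1 and 17 in replicate 2 over the members, against 6 and 10 over the short peaks. The −log10 q of the peak caller had medians of 5.50 and 8.403 over the members, and 841 of them reached 5 in both replicates. Fold was at least 10 in both replicates for 49 members. Replicate 2 had the higher fold in 839 of the 1633, so that neither library was uniformly stronger.

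**Figure D1:**
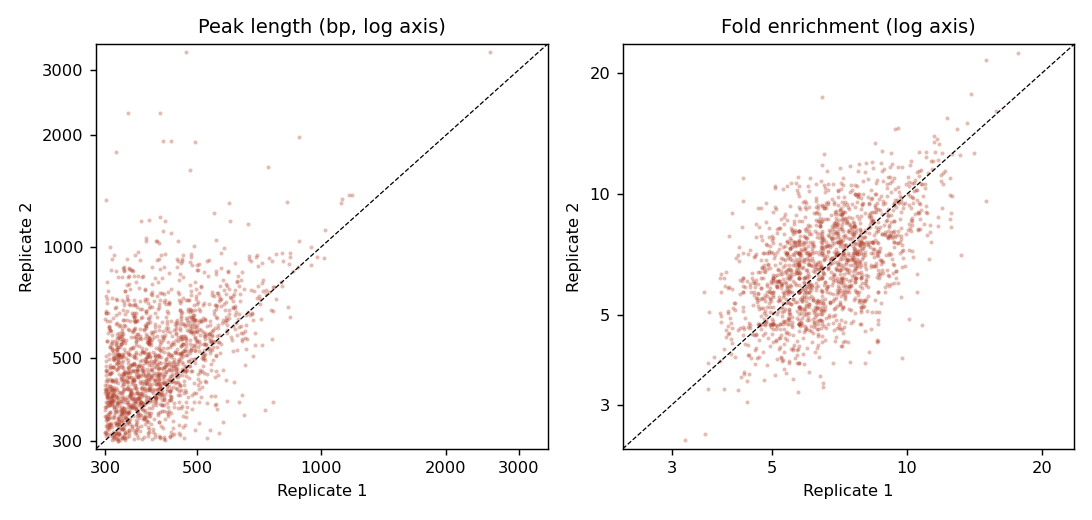
Each point is 1 of the 1633 broad shared peaks, with replicate 1 on the horizontal and replicate 2 on the vertical axis, for peak length in bp (left) and fold enrichment (right), both on log axes. Lengths lie mostly above the dashed line of equal values, with medians of 387 and 488 bp, whereas folds lie on both sides of it, with medians of 6.52 and 6.73.

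Across the members, fold in replicate 1 and replicate 2 had a Spearman's rho of 0.51 (n = 1633) and length a rho of 0.43. The points share genome sequence and the thresholds of both lists, and the rho is a description. In the short shared peaks the rho of fold was 0.33. The summits of the replicates lay a median of 86 bp apart, with quartiles of 33 and 157 bp, and within 100 bp of each other in 56.8% of the members.

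The cutoff divides a continuous range of lengths. Just inside it, a member in *Slc44a5* measured 322 bp in replicate 1 and 300 bp in replicate 2, with folds of 8.47 and 7.31, and a member 48.9 kb from *Hhip*, a hedgehog-binding protein gene, measured 300 and 370 bp, with folds of 6.25 and 6.42. Just outside it, a shared peak in *Myo16* measured 299 and 454 bp, with folds of 8.64 and 8.87, and 1 lying 183 kb from *Rora* measured 299 and 383 bp, with folds of 6.78 and 5.73. The others nearest the cutoff were a member near *Uso1*, 1 in *0610040J01Rik* and 1 near *Musk* inside it, and peaks in *Aig1*, near *Dab2ip* and in *Trim16* outside it, with folds between 5.55 and 7.66.

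Broad shared peaks lay between genes more often than short shared peaks and in gene bodies less often. Position, which the length rule did not use, was read at the replicate 1 summit against protein-coding genes. For genes without a start of known strand, either gene end counted as a start. Of the 1633 members, 950 were intergenic, or 58.2% (95% Wilson interval 55.8 to 60.5%), against 48.6% of the short shared peaks (interval 47.2 to 49.9%). The difference was 9.60 percentage points, with a 95% Newcombe interval of 6.84 to 12.3. In gene bodies farther than 2 kb from a start lay 38.8% of the members (interval 36.4 to 41.1%) and 46.9% of the short peaks (interval 45.6 to 48.3%), a difference of -8.14 points (interval -10.8 to -5.40). Within 2 kb of a gene start lay 50 members, or 3.06% (interval 2.33 to 4.01%), against 4.53% of the short peaks (interval 3.997 to 5.12%), a difference of -1.46 points (interval -2.41 to -0.38). With starts of known strand only, the shares were 1.96% and 2.95%. The shared peaks of unlike length lay between both sets, with 53.5% intergenic and 42.2% in gene bodies. With all annotated genes in place of coding genes, 43.0% of the members and 35.4% of the short peaks were intergenic. In replicate 2 alone, where all 12012 long peaks were compared with the short ones, the intergenic difference was 3.58 points (interval 2.59 to 4.58) and that near a start was -0.48 points (interval -0.95 to 0.01), which no longer leaves out 0.

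**Figure D2:**
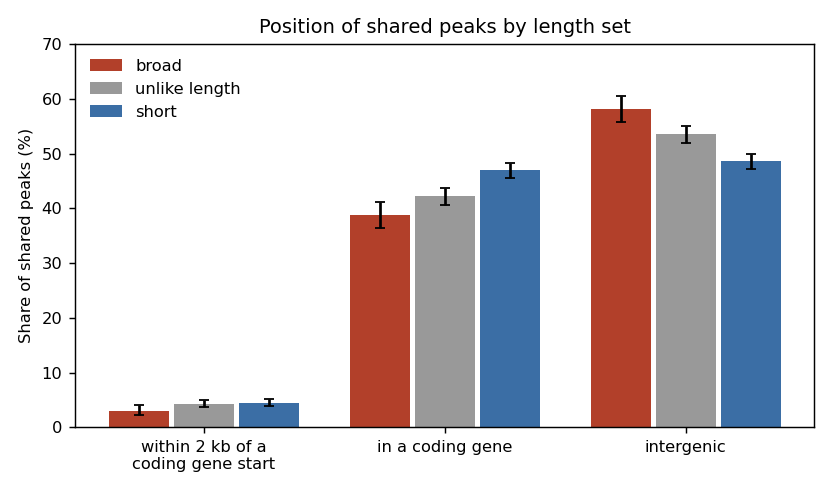
Bars give the share of shared peaks in % in each position class for the broad set (n = 1633), the shared peaks of unlike length (n = 3882) and the short set (n = 5281), with 95% Wilson intervals. The intergenic share falls from 58.2% in the broad set to 48.6% in the short set, and the share in coding genes rises from 38.8% to 46.9%.

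Position also went with fold. Among the short shared peaks, the intergenic share was 44.4% at a fold below 4 in the weaker replicate, 57.0% at a fold of 5 to 6 and 50.8% at 6 to 8. Among the members the same bands gave 50.7% (34 of 67), 58.7% (270 of 460) and 57.1% (333 of 583). The difference between broad and short peaks was 6.33 points below a fold of 4 (interval -5.54 to 18.1), 8.14 points at a fold of 4 to 5 (interval 2.21 to 13.9), 1.74 points at 5 to 6 (interval -3.89 to 7.30) and 6.34 points at 6 to 8 (interval -0.96 to 13.6). In the highest band, from a fold of 8 upwards, 63.9% of 208 members and 55.9% of 34 short peaks were intergenic, a difference of 8.06 points (interval -8.59 to 25.6). The members had the higher share in each of the 5 bands, and the interval left out 0 in 1 of them. With fold at least 5 in both replicates the difference was 3.32 points (interval -0.67 to 7.29), not detectable at this number of peaks, that in gene bodies was -3.78 points (interval -7.72 to 0.16), and that near a gene start was 0.47 points (interval -0.88 to 1.80). With a −log10 q of at least 5 in both, 58.1% of 841 members and 50.8% of the short peaks were intergenic, a difference of 7.34 points (interval 0.88 to 13.8). Between peaks with 8 to 12 fragments at the replicate 1 summit it was 6.04 points (interval 1.80 to 10.2). The part of fold in the difference was not tested further.

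**Figure D3:**
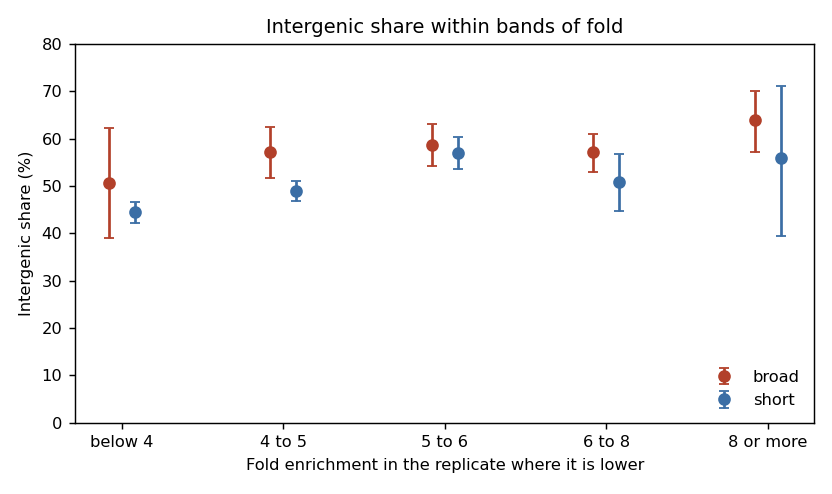
Points give the intergenic share in % of broad and short shared peaks within bands of the fold in the replicate where it is lower, with 95% Wilson intervals. The short set goes from 44.4% below a fold of 4 to 57.0% at 5 to 6, where the broad set stands at 58.7% and the intervals overlap.

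No difference with length was detectable among peaks that were found in 1 replicate only. Of the replicate 1 peaks that met no replicate 2 peak, 42.3% of the 376 long ones and 44.4% of the short ones were intergenic, a difference of -2.16 points (interval -7.10 to 2.95). In replicate 2 the shares were 44.3% of the 7164 long unmatched peaks and 44.2% of the short ones, a difference of 0.12 points (interval -1.12 to 1.36). Both intervals lie below the 6.84 points at the lower end of the interval for shared peaks of any fold. They overlap the interval for shared peaks with fold at least 5 in both replicates (3.32 points, interval -0.67 to 7.29). The unmatched peaks were not read within bands of fold. Within the members, the intergenic share was 57.1% at a shorter length of 300 to 350 bp (n = 578) and 59.4% at 500 bp or more (n = 249), with intervals that overlap (53.0 to 61.1% and 53.2 to 65.3%).

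The higher intergenic share of broad peaks was seen on 16 of the 19 chromosomes, and the lower gene body share on 13. The widest gap was on chromosome 6, with 69.0% of 87 members and 46.0% of 276 short peaks between genes. On chromosome 14 the order was opposite, with 39.2% of 51 members and 46.8% of 218 short peaks, and it was also opposite on chromosomes 7 and 12. Broad peaks made up 15.1% of all shared peaks. Their share by chromosome was lowest on chromosome 7, at 9.90% (interval 7.79 to 12.52%), and highest on chromosome 10, at 17.5% (interval 14.8 to 20.7%). The interval of chromosome 7 overlapped those of chromosomes 1, 3, 4, 9, 11, 12, 14 and 15, and that of chromosome 10 overlapped those of all chromosomes but 7.

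**Figure D4:**
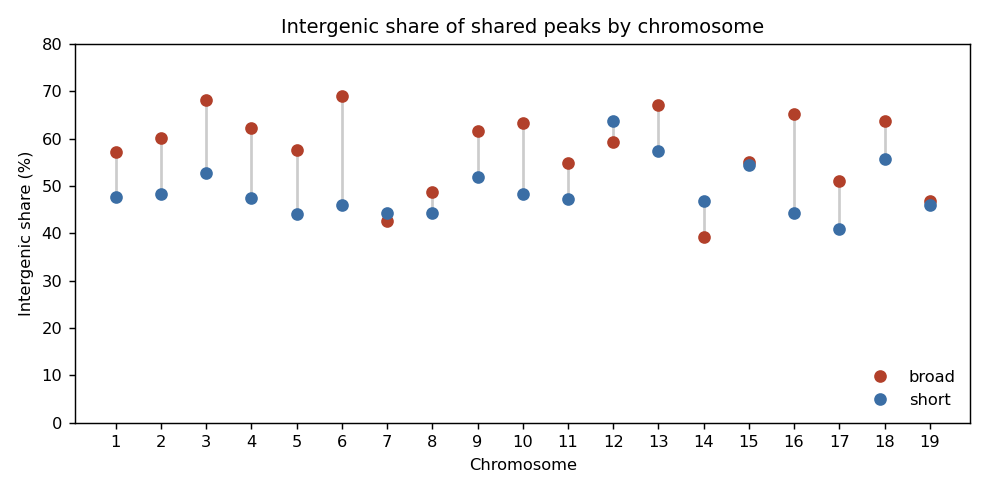
Points give the intergenic share in % of broad and short shared peaks on each of chromosomes 1 to 19, joined by a line for each chromosome. The broad set is higher on 16 of the 19, and lower on chromosomes 7, 12 and 14.

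Broad shared peaks also lay nearer to other shared peaks. Another shared peak of any length lay within 10 kb of 19.4% of the members and 15.2% of the short peaks, a difference of 4.21 points (interval 2.11 to 6.41). Within 50 kb the shares were 59.2% and 50.9%, a difference of 8.30 points (interval 5.54 to 11.02). Neighbours that met the same replicate 2 peak were counted too, and these differences were not read within bands of fold. The members were not detectably farther out in gene deserts: 28.1% of them and 26.1% of the short peaks lay over 100 kb from a coding gene start (difference 1.995 points, interval -0.45 to 4.51). Their median distance to a coding gene start was 41111 bp, against 37852 bp for the short peaks. A lncRNA gene held the summit of 11.9% of the members and 10.8% of the short peaks, a difference of 1.07 points with an interval of -0.65 to 2.91. Coding genes that held a member had a median length of 143 kb, and those that held a short peak 136 kb.

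The longest members were a few regions of very high pileup and single sites that lay mostly between genes. The longest lay on chromosome 17 at 39843922 to 39846486, reaching into one end of *Rn18s-rs5*, a pseudogene related to 18S ribosomal RNA, with lengths of 2565 and 3359 bp. It had 141 and 369 fragments at the summit over backgrounds of 20.3 and 63.8, so that its folds were only 6.66 and 5.71. The next lay in *Sfi1* on chromosome 11 at 3184300 to 3185484, with 55 and 164 fragments. Over the members as a whole, the background had medians of 0.65 and 1.64 fragments. In both replicates it was over 5 times the lowest of the library in 14 members, 4 of them in *Sfi1*, 3 around this pseudogene, 3 near *Vmn1r2* and 2 in *Mroh2a*. Without regions of such background in either replicate the intergenic difference was 9.59 points.

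Other members near 1 kb in length had lower background than the regions at *Rn18s-rs5* and in *Sfi1*. A region 22.0 kb from *Nkd1*, which encodes an antagonist of Wnt signalling, measured 1165 and 1384 bp, with folds of 6.50 and 5.36. One in *Plekhh2* measured 1114 and 1314 bp, with folds of 9.06 and 9.21. Near *Fbln2*, the gene of an extracellular matrix fibulin, a region at 91197723 to 91198742 on chromosome 6 measured 1020 and 1107 bp, with folds of 9.70 and 9.62. In the latter regions the folds of the replicates were nearly equal. The background of the regions linked to *Nkd1*, *Plekhh2* and *Fbln2* was still above the upper quartile of the members. That quartile was 0.801 fragments in replicate 1 and 2.07 in replicate 2. Near *Fbln2* the background was 2.40 fragments in replicate 1 and 5.13 in replicate 2. The rest of the 10 longest were linked to *Taok1*, *Sec16b*, *Ifnar2*, *Speer2* and *Txnl1*, at 6.20 to 657 kb from the gene, with folds between 6.78 and 10.7.

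The 50 members within 2 kb of a coding gene start, as defined above, were ranked by the lower of their folds. The strongest lay on chromosome 1 at 183299161 to 183299566, with folds of 17.7 and 22.5. It was 1.96 kb before a start of *Brox* and as far from an end of *Aida*. The next lay 1.40 kb before a start of *Emilin2*, the gene of an elastin-associated matrix protein, with folds of 10.8 and 10.6. Within *Cdh23*, a cadherin gene of hair cells, a member 1.76 kb after a start had folds of 8.69 and 9.72. *Runx1* had a member 1.93 kb after a start, on chromosome 16 at 92824036 to 92824347, with folds of 7.40 and 7.79. The others of the 10 strongest lay near *Olfr763*, *Arl9*, *Bdh1*, *Iqcf5*, *Tap2* and *Ddc*, with a fold of at least 6.88 in each replicate. None of these 10 overlapped a RefSeq start window. For *Tap2*, which has no such window, an overlap could not be counted.

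Each member was linked to the coding gene that held its summit, or otherwise to the gene with the nearest end, which gave 1336 genes. That is 6.5% of 20560 protein-coding genes. The share grows with the size of the target: it was 21.1% of genes of 100 kb or more, and 23.9% of genes to which 200 kb or more of sequence would be linked, a length called reach here. The median reach of all coding genes was 45 kb. One member was linked to 1102 of the genes, 2 to 171, 3 to 43 and 4 or more to 20. A short shared peak was linked to 678 of the 1336 as well, and to 3596 of all 20560 coding genes. When only genes within 50 kb were linked, members gave 1053 genes.

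*Slc35f3*, which encodes a solute carrier of the SLC35 family, had the most linked members, 6 of them, beside 4 short shared peaks. The member 5.20 kb outside the gene had folds of 7.83 and 6.77, and the strongest inside it, on chromosome 8 at 126260405 to 126260735, had folds of 8.71 and 6.85. The folds of the 6 ran from 4.45 to 8.71 in replicate 1 and 4.68 to 6.85 in replicate 2. *Ajap1*, the gene of a junction-associated membrane protein, had 5 members, all outside the gene. The strongest of them, on chromosome 4 at 153157658 to 153158362, measured 705 and 737 bp with folds of 11.9 and 11.1. It lay 215 kb from the gene, and the nearest of the 5 lay 23.9 kb from it. *Cdh13*, which encodes T-cadherin, had 5 members spread over its 1185 kb, with folds from 5.78 to 7.73 in replicate 1 and 6.30 to 7.93 in replicate 2. *Adamts16*, a metalloprotease gene, had 4 members on 1 side, 175 to 360 kb away, the nearest with folds of 13.1 and 12.54.

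**Figure D5:**
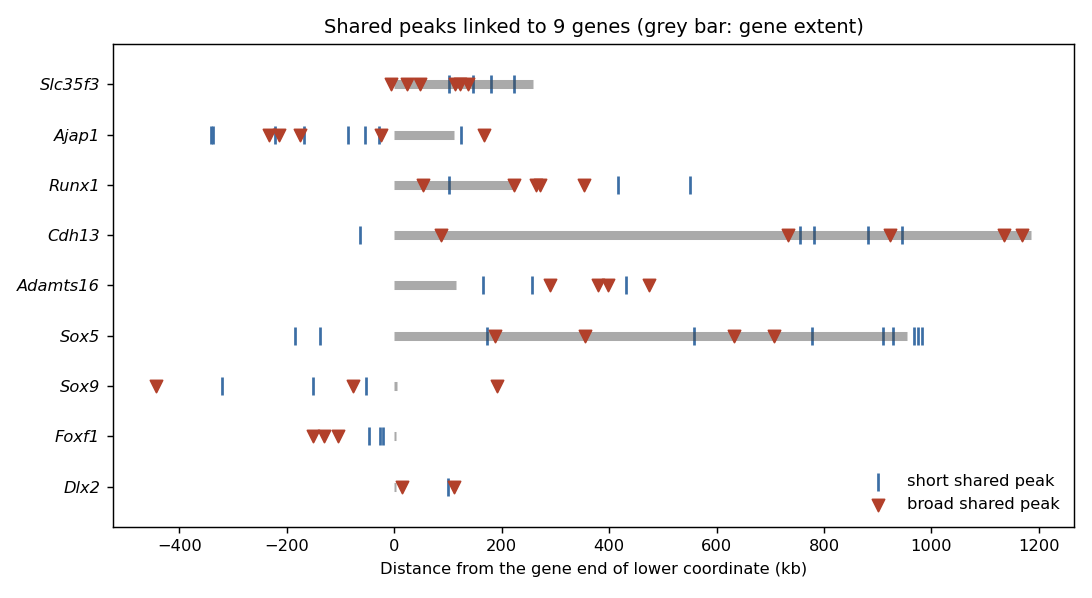
Broad (triangles) and short (ticks) shared peaks linked to 9 genes, placed by distance in kb from the gene end of lower coordinate, with the gene as a grey bar. Members lie within *Cdh13* and *Sox5*, within *Slc35f3* except for 1 at 5.20 kb outside it, on both sides of *Sox9*, and to 1 side of *Adamts16*, *Foxf1* and *Dlx2*.

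*Runx1* had 5 members as well, where RUNX1 is a runt-domain factor of blood and skeletal progenitors. The member at 92655311 to 92655755 on chromosome 16 lay in the gene, 41.7 kb after a start, with folds of 7.51 and 5.16. The other members lay before the gene, at 39.0, 47.2 and 129 kb from its start, with folds of 4.24 and 6.82, 5.80 and 5.24, and 5.70 and 4.94. With the member near its start these made 5, and *Runx1* also had 3 short shared peaks.

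Of the 6 *Dlx* genes, which had a median reach of 57.5 kb, 2 had a linked member, against 6.5% of all coding genes. The count was 1 at a length cutoff of 400 bp, and 1 when only genes within 50 kb were linked. *Dlx2* had a member 10.5 kb before its start, on chromosome 2 at 71557240 to 71557543, with lengths of 304 and 345 bp and folds of 4.88 and 5.71. It stood just inside the length cutoff. Another lay 108 kb before the same start, with lengths of 330 and 586 bp and folds of 7.11 and 7.75. *Dlx6* had a member 62.8 kb away, on chromosome 6 at 6800324 to 6800769, with folds of 8.79 and 11.4. *Dlx1*, *Dlx3*, *Dlx4* and *Dlx5* had none.

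Of 76 facial transcription factor genes, 15 had a linked member, or 19.7%, and their median reach was 235 kb. Among all coding genes with a reach of 200 kb or more the share was the 23.9% given above, but the list was not limited to such genes. Within 50 kb of the gene, 10 had a member, against 1053 of all 20560 coding genes. A short shared peak was linked to 37 of the 76 genes, against 3596 of all coding genes. *Foxf1* and *Tbx3* had 3 members each. *Foxf1* encodes a forkhead factor of mesenchyme, and its members lay in a row at 106, 130 and 151 kb, with folds of 5.80 and 4.81, 8.48 and 5.47, and 7.37 and 9.49. Those of *Tbx3*, a T-box gene, lay at 44.2, 87.1 and 347 kb, and in each of the nearer pair replicate 2 was the stronger, with 9.22 against 4.66 and 9.51 against 5.97.

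A member linked to *Rora*, a nuclear receptor gene, lay inside the gene on chromosome 9 and measured 598 and 676 bp, with folds of 11.03 and 9.34. *Six2*, a regulator of head mesenchyme, had a member 35.7 kb before its start, with folds of 7.73 and 8.81. *Gsc*, the jaw patterning gene goosecoid, had a member 92.4 kb before its start, with folds of 8.80 and 7.99. *Meis2*, a cofactor of homeodomain proteins, had 2 members, with folds of 3.87 and 4.82 for that in the gene and 4.82 and 6.45 for that outside. *Alx4*, *Tfap2c*, *Eya4*, *Nfib*, *Irx3*, *Tead1* and *Mycn* had 1 member each, with folds from 4.56 to 8.79.

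Of 40 skeletal genes, 9 had a linked member, or 22.5%, with a median reach of 80 kb. The share of all coding genes was 6.5%, with a median reach of 45 kb. It was 21.1% of genes of 100 kb or more and 23.9% of those with a reach of 200 kb or more. The list mixes short and long genes, among them *Sox5* with 954 kb, and no background matched in reach was counted for it. Within 50 kb of the gene, 6 of the 40 had a member. A short shared peak was linked to 15 of the 40, against 3596 of all 20560 coding genes. *Sox5* and *Sox6*, which encode partners of SOX9 in cartilage, had 4 members and 1. All 4 of *Sox5* lay inside the gene, with folds from 7.13 to 7.82 in replicate 1 and 5.41 to 8.91 in replicate 2. The member of *Sox6* lay 5.70 kb from the gene, with folds of 7.46 and 11.7. *Sox9*, the master factor of chondrocytes, had 3 members at 76.5, 186 and 443 kb, both upstream and downstream of the gene by coordinate. The nearest, on chromosome 11 at 112705519 to 112705873, measured 355 and 703 bp with folds of 9.83 and 7.28.

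Genes of bone formation were on the same list. *Sp7*, which encodes the osteoblast factor osterix, had a member 0.684 kb from an end of the gene, on chromosome 15 at 102367498 to 102367832, with folds of 7.87 and 4.77. *Runx2*, the gene of the main osteoblast regulator, had a member of 557 and 845 bp inside it, with folds of 7.78 and 10.04. In *Mepe*, which encodes a matrix protein of bone and tooth, a member of 803 and 960 bp had folds of 8.402 and 7.33. *Bmp7* had members 69.6 and 125 kb away, the nearer with folds of 6.77 and 7.80. *Matn1*, the gene of the cartilage matrix protein matrilin, had 2 members, both over 276 kb away.

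The signalling lists had linked shares above the 6.5% of all coding genes, and median reach above their 45 kb. No background matched in reach was counted for these lists. Linked genes numbered 7 of 37 in the BMP and TGF-beta pathway (18.9%), 6 of 52 in the Wnt pathway (11.5%), 4 of 24 in the Notch pathway (16.7%), 4 of 16 in the Hedgehog pathway (25%), 3 of 28 in the FGF pathway (10.7%) and 2 of 18 in the retinoic acid pathway (11.1%). A short shared peak was linked to 17, 14, 10, 8, 10 and 7 genes of these lists, and to 3596 of all 20560 coding genes. In the same order, 4, 4, 4, 2, 2 and 2 genes had a member within 50 kb, against 1053 of all coding genes. Median reach went from 70 kb for Notch genes to 195 kb for BMP and TGF-beta genes. The strongest lay 27.8 kb from *Aldh1a2*, the main enzyme of retinoic acid synthesis in the embryo, with folds of 12.6 in both replicates. *Rarb*, a retinoic acid receptor gene, held a member of 495 and 1920 bp with folds of 4.95 and 5.51.

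Among ligands, *Tgfb2* had 2 members, the stronger 250 kb away with folds of 10.6 and 8.16, and *Wnt5a* had 1 at 158 kb with folds of 5.92 and 5.54. Among receptors, *Tgfbr2* had a member 126 kb before its start with folds of 9.03 and 8.62, *Tgfbr3* had 2, and *Notch1* had 1 at 24.99 kb with folds of 5.29 and 5.38. *Ror1*, a Wnt receptor gene, held a member with folds of 6.04 and 6.71, and *Fgfr4* held 1 with folds of 4.71 and 4.75. *Gas1*, the gene of a hedgehog co-receptor, had 3 members at 77.5, 125 and 138 kb, of which the nearest measured 810 and 913 bp with folds of 7.44 and 8.15. Among effectors, *Lef1* had a member 189 kb before its start with folds of 8.52 and 9.06, and *Gli2* had 1 with folds of 8.20 and 5.89. *Tcf7l2* had 2, with folds of 8.29 and 9.0003 for 1 and 5.78 and 9.18 for the other. Inhibitors and modulators with 1 member each included *Sufu*, which holds back GLI factors, with folds of 7.27 and 7.26, *Spred2* with 7.18 and 8.18, *Mfng* with 6.87 and 5.19 and *Dlk1* with 5.78 and 5.51. *Maml2*, a Notch coactivator gene, held a member with folds of 4.80 and 5.54, and *Fgf12* held 1 with folds of 6.23 and 8.09.

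Genes of cell contact and axon guidance had higher counts and longer reach. The shares given above were 21.1% for genes of 100 kb or more and 23.9% for a reach of 200 kb or more. No share was counted for genes with a reach as long as in these lists, so they have no matched background. Linked genes numbered 16 of 45 for neuronal and synaptic adhesion (35.6%, median reach 1265 kb), 8 of 23 for cadherins (34.8%, median reach 900 kb) and 12 of 46 for axon guidance (26.1%, median reach 520 kb). Within 50 kb of the gene the counts were 10, 6 and 4, against 1053 of all 20560 coding genes. A short shared peak was linked to 34, 12 and 19 genes of these lists. *Robo1*, a Slit receptor gene, had a member 10.1 kb away with folds of 10.1 and 9.996, and *Plxna2*, a semaphorin receptor gene, had 1 at 316 kb with folds of 10.2 and 9.89. *Slit3* had 1 at 91.0 kb with folds of 9.55 and 8.12, and *Sema5a* held 1 with folds of 6.49 and 7.14. In each of these guidance genes the replicates were within 1.5 fold units of each other.

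Of the adhesion genes, *Tenm3*, the gene of a teneurin, had 3 members, and the strongest in both replicates lay in the gene with folds of 7.09 and 8.20. *Lsamp*, which overlaps *Gm52229* there, held a member of 512 and 786 bp with folds of 10.4 and 8.94. *Sdk2* and *Cadm1* had 2 members each, with folds from 3.99 to 6.81 in replicate 1 and 4.20 to 7.80 in replicate 2. *Cdh26* and *Cdh4* had 3 cadherin members each. Those of *Cdh26* lay 106 to 188 kb away with folds of at least 5.51, and those of *Cdh4* lay in the gene, the strongest with folds of 7.97 and 5.37.

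Lists for other cell types that the tissue could hold were counted in the same way, although a peak near a gene is no measure of its expression. Muscle genes had 0 of 16 linked (median reach 35 kb), blood genes 1 of 13 (7.69%, 30 kb), and genes of neurons and glia 1 of 15 (6.67%, 60 kb), where the latter shares lay near the 6.5% of all coding genes. Those of the oral epithelium had 3 of 17 (17.6%, median reach 95 kb), among them *Grhl3* and *Sox2*, and those of endothelium 4 of 14 (28.6%, median reach 130 kb), namely *Cdh5*, *Erg*, *Flt1* and *Kdr*. Lists with longer reach present more sequence to a peak, so these counts are no comparison of cell types. *Cdh5*, which encodes VE-cadherin, had a member 3.53 kb from the gene with folds of 6.78 and 8.88, and *Kdr*, a VEGF receptor gene, had 1 at 102 kb with folds of 5.41 and 4.54. *Sox2* had 2 members over 110 kb away, the stronger with folds of 7.87 and 7.42. *Cx3cr1*, a chemokine receptor gene of myeloid cells, had a member 1.89 kb before its start with folds of 6.35 and 5.92. The part of such cells in the signal was not tested.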

How the data were processed

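Peak lists of 2 CUT&Tag libraries were analysed, 1 for each replicate. Per the labels, the submitters' processing notes name Trim Galore 0.4.5, Bowtie 1.1.2 and MACS2 2.2.7 and the build mm10, while the methods of the study name bowtie2; settings are not given in the sources used here. The labels describe sonication and the methods transposase tagging. The authors called peaks for each library, not on pooled reads. The deposited lists, of 28061 and 62093 peaks, hold more peaks than the study reports for either replicate. Among the short shared peaks their −log10 q went down to 1.00 in replicate 1 and 1.01 in replicate 2. Members are therefore not the published set of peaks. Deposited with each peak were its position, a score (the whole part of 10 times −log10 q), the fold (a ratio to local background), −log10 p, −log10 q and the summit. No genome sequence was used here, so motifs and GC content around summits were not analysed.

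Read totals were not given, so depth is known only through fragments at the summit and local background, recovered from fold and −log10 p. Fold was taken as fragments plus 1 over background plus 1. Only whole numbers of fragments were tried, and the best of them gave back the deposited −log10 p within 0.001 for 100% of peaks. The lowest background was 0.387 fragments in replicate 1 and 1.10 in replicate 2.

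Members and gene lists were chosen with earlier results of these data known. The partner of a peak was the longest replicate 2 peak it met. bedtools 2.31.1 also gave 1633 members. Genes came from RefSeq GRCm38.p6, of which 46714 on chromosomes 1 to 19 were kept, after those listed before position 3000000 were left out. A gene start was a RefSeq start with a strand, or either gene end for 4103 of 20560 coding genes without one, the 511 of chromosome 18 included. Where 5 summits lay in more than 1 coding gene, all were linked. Reach was counted on a 5 kb grid. Named regions were the 10 longest, the 10 strongest near a start, those at the cutoff, those linked to the 5 genes with most members and to listed genes (up to 4 genes a list in full). Differences of shares carry 95% Newcombe intervals and were called where these leave out 0. Code was tested on simulated data. Alternatives covered length, strength, overlap, replicates, background, gene set, distance and linking. The scripts ran in Python 3.11.15 with pandas 2.3.3, numpy 2.4.6, matplotlib 3.10.9 and scipy 1.17.1. Some regions and the genes linked to them are not reported here.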

Additional observations from a re-analysis of the deposited data

Results flagged for a closer look

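Outside chromosomes 1 to 19, which the report is about, 23 further regions met the same length rule in both replicates, and no comparison above used them. Of these, 10 lay on X, 1 on Y and 12 on unplaced sequence. The strongest on X, at 85800209 to 85800639, measured 431 and 356 bp, with a replicate 1 fold of 13.9 and a replicate 2 fold of 11.5. The others on X had folds between 4.76 and 9.59. The regions on unplaced sequence had recovered backgrounds from 0.978 to 7.03 fragments in replicate 1, and those on X from 0.387 to 0.724. No control library was used here, and the part of background in these regions was not tested.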

How the results depend on the processing

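Of 87 alternative values for the comparisons and counts, 69 kept the direction and the side of 0, or stayed within 1.5 times the main value. The intergenic difference of 9.60 points ranged from 3.32 to 10.1 over 16 alternatives and kept its call in 15. With fold at least 5 in both replicates it was 3.32, the gene body difference -3.78 (interval -7.72 to 0.16) and that near a start 0.47, the opposite direction. Near a start the interval also took in 0 with a −log10 q of at least 5 (-0.80 points), with 8 to 12 fragments (-0.51) and with all annotated genes (-1.75); the cause was not tested. With single replicates in turn, the differences ranged from -1.71 to -0.48 points near a start, from -6.79 to -3.10 in gene bodies and from 3.58 to 8.50 between genes, and the members from 2430 to 12012.

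By construction, members numbered 2593 at a cutoff of 250 bp, 657 at 400 bp, 841 at a −log10 q of at least 5 and 892 with 8 to 12 fragments. The linked genes then numbered 612 at 400 bp, 762 at a −log10 q of at least 5 and 800 with 8 to 12 fragments, and 1877 with replicate 1 alone or 6400 with replicate 2 alone. Summed over the lists, the linked genes fell from 97 to 38 at 400 bp and to 61 within 50 kb. For single lists, 45 of 68 alternative counts stayed within 1.5 times. The rho of fold ranged from 0.35 to 0.60 and the summit distance from 70 to 98 bp. The fragment band, the fold bands, the unmatched peaks, the neighbouring peaks, the lncRNA and desert shares and 2 other choices of gene start were chosen after the data were seen. Alternatives for motifs and GC content need a genome and were not run. No paired analysis was possible because the samples form 1 group. Without a control library, no alternative separates DLX2 sites from background shared by both libraries.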
